A study of Mus musculus with 2 samples.

Results

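The genes described here are the 10 replacement histone variants whose mRNAs carry a poly(A) tail: H3f3a and H3f3b (histone H3.3), H2afz and H2afv (H2A.Z), H2afx (H2A.X), H2afy and H2afy2 (macroH2A), H1f0 (H1.0), H1fx (H1.X) and Cenpa (centromeric H3). They were chosen by name, and all 10 were found among the 22556 genes of the count table. mRNA was sequenced from mouse embryonic stem cells (mESCs) of the iXist-ChrX-Dom line. The line is female, comes from a cross of Dom/129S with Cast, and carries a modified X chromosome on which a TetOn promoter replaces the endogenous Xist promoter on the Dom/129S allele. Both samples were untreated, that is, taken at 0 h without induction of Xist, and they form 1 group of 2 replicates, so no condition was compared. The cells came from a single engineered line grown on inactivated mouse fibroblast feeders, which were removed by pre-plating, and mRNA was captured on oligo-dT beads. The labels do not say whether the replicates were separate cultures, so the spread between these libraries may be technical. Any p-value below sets a difference between these libraries against read sampling alone and does not measure that spread.

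Most histone mRNAs are made in S phase, end in a conserved stem-loop and lack a poly(A) tail. Replacement variants are instead transcribed through the cell cycle, are mostly spliced and polyadenylated, and are placed in chromatin outside replication by dedicated chaperones and exchange complexes. In ES cells H3.3 is best known from active genes and telomeres, H2A.Z from promoters and CENP-A from centromeres, while macroH2A is known for gathering on the inactive X chromosome once female cells differentiate.

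The pairs H3f3b with H3f3a and H2afz with H2afv encode the same or nearly the same protein from different nucleotide sequences, which is what lets reads be assigned to one gene or the other. The first 60 coding bases of each are shown for this reason, with the bases that differ within a pair in capitals (13 in each pair; GENCODE M21, GRCm38, 5′ to 3′).
H3f3b: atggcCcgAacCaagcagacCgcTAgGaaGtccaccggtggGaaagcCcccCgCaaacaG
H3f3a: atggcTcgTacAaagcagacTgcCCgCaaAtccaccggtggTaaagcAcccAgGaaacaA
H2afz: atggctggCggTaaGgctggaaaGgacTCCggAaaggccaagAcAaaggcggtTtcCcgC
H2afv: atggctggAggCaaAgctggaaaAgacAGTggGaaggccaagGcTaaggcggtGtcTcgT

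Over the whole 408-base coding sequence, H3f3b and H3f3a were identical at 76.7% of bases. Of their 136 codons 83 differed, and all 83 differences were synonymous. H2afz and H2afv were identical at 79.2% of 384 bases, and 70 of their 73 differing codons were synonymous. The macroH2A genes H2afy and H2afy2 were further apart, with 67.2% identity over 1116 bases and 123 of 256 differing codons changing the amino acid. The linker histone genes H1fx and H1f0 shared 45.9% of 592 alignment columns.

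The 3′ stem-loop was looked for because it separates replication-dependent histone mRNAs from the rest. The motif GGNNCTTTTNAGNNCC, searched on the sense strand of annotated transcripts, occurred in H2afx and in none of the other 9 genes. The matched H2afx sequence is shown with its 6-base stem arms in capitals and the 4-base loop in lower case.
H2afx: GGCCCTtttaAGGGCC
It starts at base 547 of the 1384-base transcript, 49 bases after the stop codon, and 822 bases follow it up to the annotated end. The motif was present in 36 of 56 replication-dependent histone genes (64.3%) and in 0.307% of all 22137 genes with a matched annotation. A poly(A) signal hexamer (AATAAA or ATTAAA on the sense strand) lay in the last 50 bases of an annotated transcript in 9 of the 10 genes, H2afx included and H2afy not, compared with 78.3% of all genes and 23.2% of the replication-dependent genes. H2afx, which is known to give rise to both a short stem-loop mRNA and a long polyadenylated one, thus carried both features in its sequence. These matches describe the annotated letters only.

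Libraries held 23716499 and 20275749 counts for replicates 1 and 2. Their coefficient of variation beyond read sampling was 0.280 (the biological coefficient of variation of edgeR, which may hold technical spread here). All 10 ES cell markers examined exceeded a mean of 10 TPM, from 63.8 TPM for Pou5f1 (110.3 and 17.3 TPM in replicates 1 and 2) to 2284 TPM for Tdgf1, whereas 1 of 8 neural precursor markers (Nes, 3.80 TPM) and 2 of 10 fibroblast markers (Twist1, 9.36 TPM, and Thy1, 1.22 TPM) reached a mean of 1 TPM, with Sox1 and Lum at 0 counts. Thy1 did so through replicate 1 alone (2.27 and 0.176 TPM). The markers were thus those of ES cells, although the cell type label reads mESC to NPC. In bulk RNA, fewer cells of a type and less RNA per cell cannot be told apart.

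Levels are given as TPM, that is, counts per kb of exonic length scaled to 1000000 per library, where exonic length is the union of annotated exons. The median of the 10 genes was 66.1 TPM, compared with 1.84 TPM over 22137 genes, and 9 of 10 lay above that overall median. Together they took 47712 counts in replicate 1 or 0.201% of the library (Wilson 95% interval from 0.199 to 0.203%), and 47362 in the other, or 0.234% (from 0.231 to 0.236%). Intervals and limits throughout cover counting error only, since the reads carry no molecular identifiers and may be PCR copies. The H3.3 genes alone supplied 71.1% and 75.9% of these counts in replicates 1 and 2, and with H2afz the share was 83.8% and 91.4%.

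H3f3b (chr11:116021961-116024504, minus strand, mm10), one of the genes for the H3.3 that marks transcribed chromatin, had 21319 and 22429 counts in replicates 1 and 2. Its level was 1128 and 1476 TPM (1302 ± 246, SD, n = 2), rank 71 of all genes and first of the 10. H3f3a (chr1:180802568-180813603, minus strand), which encodes the identical protein, had 12598 and 13538 counts, or 559 and 746 TPM (653 ± 133). Both replicates put H3f3b above H3f3a by exonic TPM, but with exon bases inside the counted span, a length described below, the order turned (1483 and 1642 TPM) and the ranges overlapped.

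H2afz (chr3:137864487-137866922, plus strand), the main gene for the promoter-associated variant H2A.Z, had 6069 and 7302 counts, or 755 and 1130 TPM (943 ± 265). By exonic TPM this placed it second, with a range that overlapped that of H3f3b just above but not that of H3f3a below. Its place relative to H3f3a turned with the length: H3f3a was above H2afz with exon bases inside the counted span (1642 and 852 TPM; a length described below). H2afv (chr11:6427226-6444443, minus strand), which encodes the second H2A.Z isoform, had 845 and 627 counts, or 68.9 and 63.5 TPM (66.2 ± 3.76). Its replicates lay close together, far below those of H2afz.

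Cenpa (chr5:30666902-30674826, plus strand), the H3 variant that specifies centromeres, came next after the H3.3 genes and H2afz, with 3378 and 1933 counts. Its level was 274 and 195 TPM (234 ± 55.9), apart from its neighbours on either side. Replicate 2 was the lower of the pair.

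H2afx (chr9:44334715-44336073, plus strand, 1 exon), the variant phosphorylated around DNA breaks, had 1205 counts in replicate 1 (95% Poisson interval 1138 to 1275) and 136 in replicate 2 (114 to 161). Its levels of 116 and 16.3 TPM (66.1 ± 70.4) gave an SD larger than the mean, so its place in the order is not determined by these libraries.

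H2afy (chr13:56073622-56135550, minus strand), which encodes macroH2A1, had 1114 and 556 counts, or 69.4 and 43.1 TPM (56.2 ± 18.6). H2afy2 (chr10:61738647-61783864, minus strand; Aifm2 overlaps it on the other strand), which encodes macroH2A2, had 566 and 395 counts, or 34.6 and 30.1 TPM (32.3 ± 3.24). Both genes of the variant known from the inactive X chromosome were thus present in these cells before induction of Xist, H2afy above H2afy2 in each replicate.

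H1f0 (chr15:79028212-79030500, plus strand, 1 exon), a linker histone best known from differentiated and resting cells, had 618 and 445 counts, or 40.0 and 35.8 TPM (37.9 ± 2.96). H1fx (chr6:87980421-87981482, minus strand, 1 exon), another linker variant, had 0 counts in replicate 1 and 1 in replicate 2, or 0 and 0.136 TPM. Since 0 counts are compatible with as many as 3, or 0.328 TPM in replicate 1, H1fx was at or under the detection limit. Its transcript has a GC content of 71.3%, above that of 99.96% of all genes. Of the 14 genes with a GC content over 70%, 3 (21.4%) had at least 10 counts in total, compared with 41.7% of genes from 65 to 70% GC, 59.5% from 60 to 65%, 71.1% from 55 to 60% and 54.3% up to 45%. The part of GC content in the H1fx value was not tested.

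**Figure D1:**
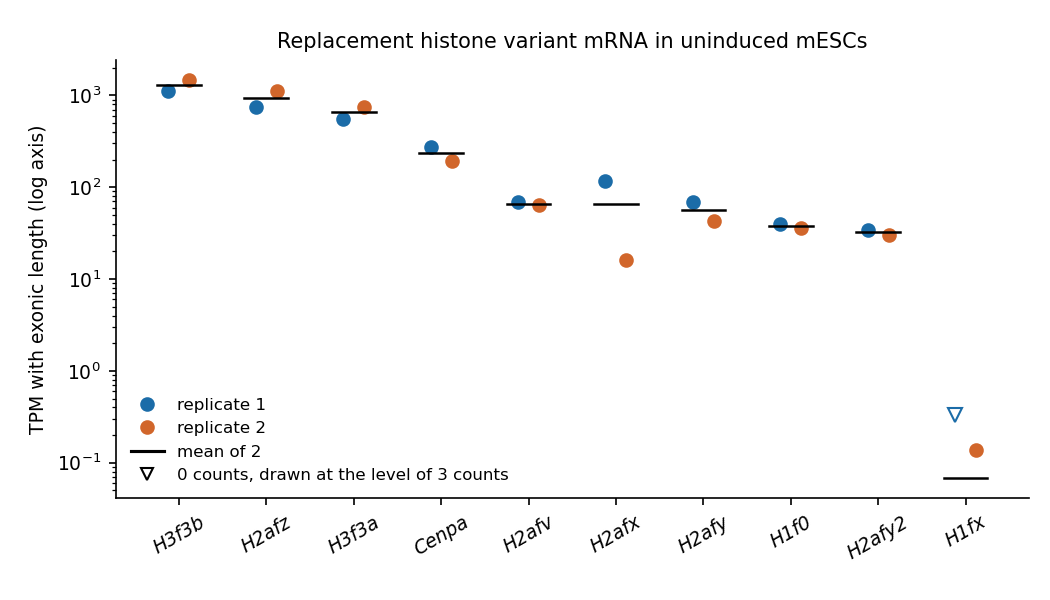
TPM with exonic length (log axis) of the 10 replacement variants in replicates 1 and 2, in order of their mean (black bar, n = 2). The H3.3 genes, H2afz and Cenpa lie above the rest, H2afx spans 16.3 to 116 TPM, and H1fx sits at the detection limit; its replicate 1 had 0 counts and is drawn as an open triangle at the level of 3 counts.

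In descending order of mean exonic TPM the genes were H3f3b, H2afz, H3f3a, Cenpa, H2afv, H2afx, H2afy, H1f0, H2afy2 and H1fx. With exon bases inside the counted span the top of the order was H3f3a, H3f3b and H2afz, with overlapping ranges for the H3.3 genes. By exonic TPM, of the 9 neighbouring pairs, 3 had overlapping replicate ranges: H3f3b with H2afz, H2afv with H2afx, and H2afx with H2afy. With 2 values against 2, a two-sided exact permutation test cannot give a p below 0.33, so no test of the order was made.

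Within pairs of related genes, the share of counts was nearly the same in both replicates for H3.3 and differed more for H2A.Z and macroH2A. H3f3b supplied 62.9% of H3.3 counts in replicate 1 and 62.4% in replicate 2, with Wilson 95% intervals of 62.3 to 63.4% and 61.9 to 62.9%. H2afz supplied 87.8% of H2A.Z counts (87.0 to 88.5%) and 92.1% (91.5 to 92.7%), and these intervals did not overlap. H2afy supplied 66.3% of macroH2A counts (64.0 to 68.5%) and 58.5% (55.3 to 61.6%), again without overlap. H1fx supplied 0 of 618 linker variant counts in replicate 1, which allows a share of up to 0.485% when 3 counts are taken as the limit and 0.618% as the Wilson limit, and 1 of 446 in replicate 2 (0.224%; 0.0396 to 1.26%). The intervals of this pair overlapped.

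**Figure D2:**
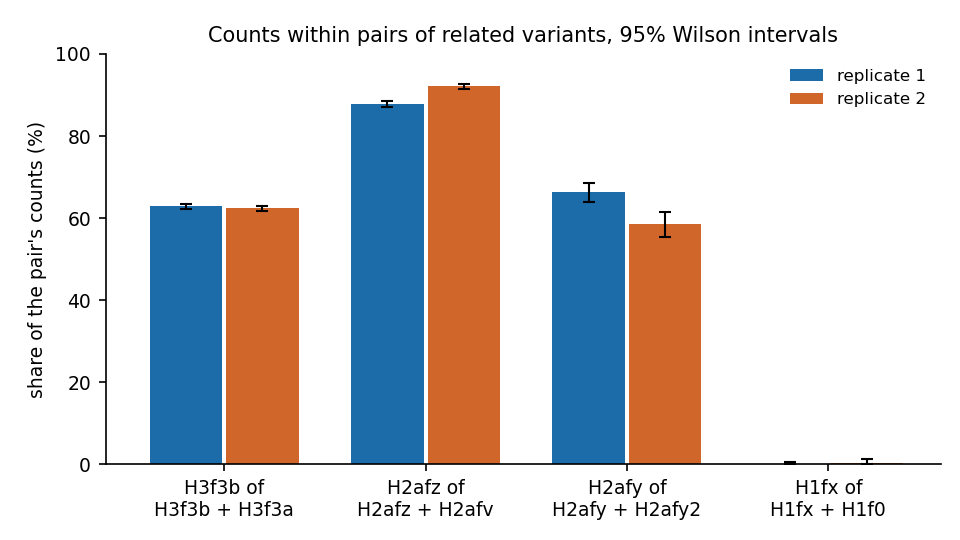
Share of a pair's counts (%) that fell on its first gene, per replicate, with 95% Wilson intervals as error bars. H3f3b took 62.9 and 62.4%, H2afz 87.8 and 92.1%, H2afy 66.3 and 58.5% and H1fx 0 and 0.224%.

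Per exonic length, H2afz exceeded H2afv by a log2 ratio of 3.46 and 4.15 in replicates 1 and 2 (3.80 ± 0.49, n = 2), and H2afy was 2.00 and 1.43 times as high as H2afy2 (log2 ratio 0.76 ± 0.34). The direction of both mean ratios held under every gene length tried. H3f3b was 2.02 and 1.98 times as high as H3f3a (log2 ratio 1.00 ± 0.02), but here the length decided the direction. Only 1077 of the 3001 exonic bases of H3f3a lay inside the span over which the authors counted fragments, compared with 1994 of 2514 for H3f3b. Divided by exon bases inside that span, a length chosen after seeing the data, H3f3a stood at 1642 ± 338 TPM and H3f3b at 1483 ± 283 TPM, a log2 ratio of -0.14 of H3f3b to H3f3a. With the deposited length, which includes introns, the ratio was 2.86. H3f3a thus had fewer counts than H3f3b in both replicates, whereas the order of the H3.3 genes per length depended on the length.

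The deposited length changed other levels too, because the genes differ in intron content: the counted span was 29.0 times the exonic length for H2afy and 1.11 times for H1f0. With it H2afy fell from 56.2 to 10.0 TPM and H2afy2 from 32.3 to 8.08 TPM, while the single-exon genes H2afx and H1f0 stood at 343 and 177 TPM. H3f3b, H2afz and H3f3a kept the top places in the same order, and H2afy2 and H1fx the last places. Exonic TPM has a limit of its own: counts made over whole spans include any intronic fragments, which are then divided by exon bases alone. How much this adds to genes with long introns such as H2afy was not tested.

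**Figure D3:**
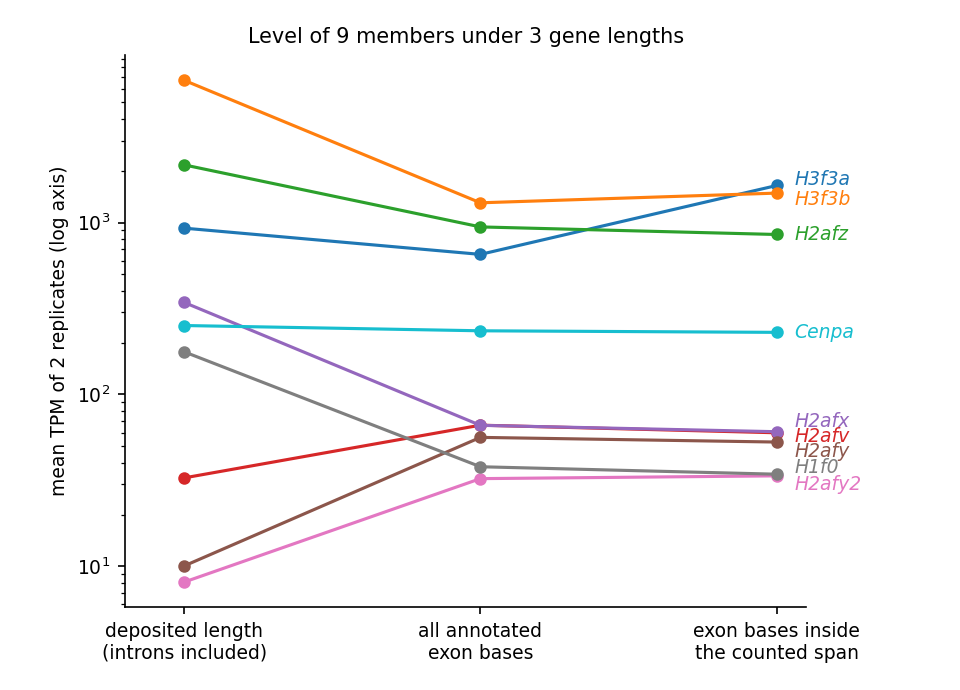
Mean TPM of 2 replicates (log axis) for 9 of the genes under 3 gene lengths, with 1 line per gene; H1fx, at or under the detection limit, is left out. H3f3a passes H3f3b when only exon bases inside the counted span are used (1642 and 1483 TPM), and H2afy and H2afy2 are lowest with the deposited length (10.0 and 8.08 TPM).

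Copies elsewhere in the genome could affect some of these counts. Of the 50-base stretches of the H2afz transcript, 69.6% also occurred in transcripts of other loci, 33.2% in pseudogenes, and at 81 bases (the read length) 60.3% still did. For H3f3a the shares were 16.4% and 9.49%, spread over 40 other genes at 50 bases of which 38 were pseudogenes. For H3f3b they were 8.40% and 3.53%, for H2afx 6.14% and 2.84%, and for H2afy2 6.68% and 0.716%. H2afv, H2afy, H1f0, H1fx and Cenpa shared no such stretch. For its chromatin RNA libraries the study kept only reads that aligned to a single place, and whether the mRNA reads were treated likewise is not given in the sources used here, so the H2afz level in particular is uncertain.

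The difference between replicates was tested gene by gene by comparing each gene's counts with the library totals (exact binomial test, two-sided), with Benjamini-Hochberg adjustment over 14536 genes; it compares these 2 libraries and not conditions. All 9 genes with at least 10 counts passed at an adjusted p of 0.05, beside 60.8% of all genes tested. Lower in replicate 2 were 6 (H2afx, H2afy, Cenpa, H2afy2, H1f0 and H2afv; 45.7% of all genes) and higher were 3 (H2afz, H3f3a and H3f3b; 15.1%). The median log2 ratio of replicate 2 to replicate 1, on CPM, was -0.25 over these 9 and -0.31 over all genes tested. Scaling by TMM factors raised every log2 ratio by 0.26, after which 6 of the 9 passed, beside 57.7% of all genes, with 3 lower (28.9% of all genes) and 3 higher (28.8%), and H2afv, H2afy2 and H1f0 no longer passed, with H2afv and H1f0 at slightly positive values.

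H2afx differed most. It was 7.55-fold lower in replicate 2 (log2 ratio -2.92, adjusted p = 6.67e-178, exact binomial test with Benjamini-Hochberg adjustment; -2.66 with TMM factors). A ratio this low or lower was seen in 6 (0.0616%) of the 9736 genes that had 50 or more counts in both libraries, H2afx among them. Markers of ES cells with a ratio of similar size were Dppa5a with 2915 and 298 counts (log2 ratio -3.06) and Pou5f1 with 1129 and 142 counts (-2.76), and 9 of the 10 ES cell markers passed the exact binomial test as lower in replicate 2, beside 45.7% of all genes tested. With TMM factors Nanog (0.075) and Klf4 (0.11) among these 9 turned positive, and Tdgf1 stood at -0.0067. The remaining marker, Zfp42, passed as higher (0.047, and 0.30 with TMM factors). After Dppa5a and Pou5f1 the lowest marker was Esrrb, at -1.24. How many of the markers pass with TMM factors was not counted.

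The log2 ratio between replicates moved with GC content over all genes, with medians of 0.16 up to 45% GC, -0.16 from 45 to 50%, -0.50 from 50 to 55%, -0.72 from 55 to 60%, -0.64 from 60 to 65% (121 genes) and -0.24 from 65 to 70% (10 genes). The medians thus fell up to 60% GC and not beyond it. The H3.3 genes, with a GC content of 43.2% (H3f3a) and 43.4% (H3f3b), had log2 ratios of 0.33 and 0.30, and H2afy at 53.8% GC had -0.78. At the GC content of H2afx, 62.3%, the trend over autosomal genes gave -0.71, which leaves -2.20 for H2afx. Among the 41 genes within 1 point of that GC content the median was -0.58, and H2afx was the lowest. Against the trend, 7 of the 9 genes passed, beside 44.6% of all genes, with 2 lower (21.6% of all genes) and 5 higher (23.0%), while H2afv and H2afy did not. The part of GC content in these differences was not tested.

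Among the 9 genes tested, H2afz was the one that most exceeded its replicate 1 level in replicate 2, at a log2 ratio of 0.49 (adjusted p = 5.65e-85, exact binomial test with Benjamini-Hochberg adjustment) and 0.80 above the GC trend. Cenpa was 1.49-fold lower (log2 ratio -0.58) and H2afy 1.71-fold lower, and both stayed lower with TMM factors (-0.32 and -0.52). H2afv, H2afy2 and H1f0 had ratios of -0.20, -0.29 and -0.25, of which those of H2afv and H1f0 turned to 0.052 and 0.0091 with TMM factors. Against the GC trend H2afy2 (0.37) and H1f0 (0.30) passed as higher in replicate 2.

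**Figure D4:**
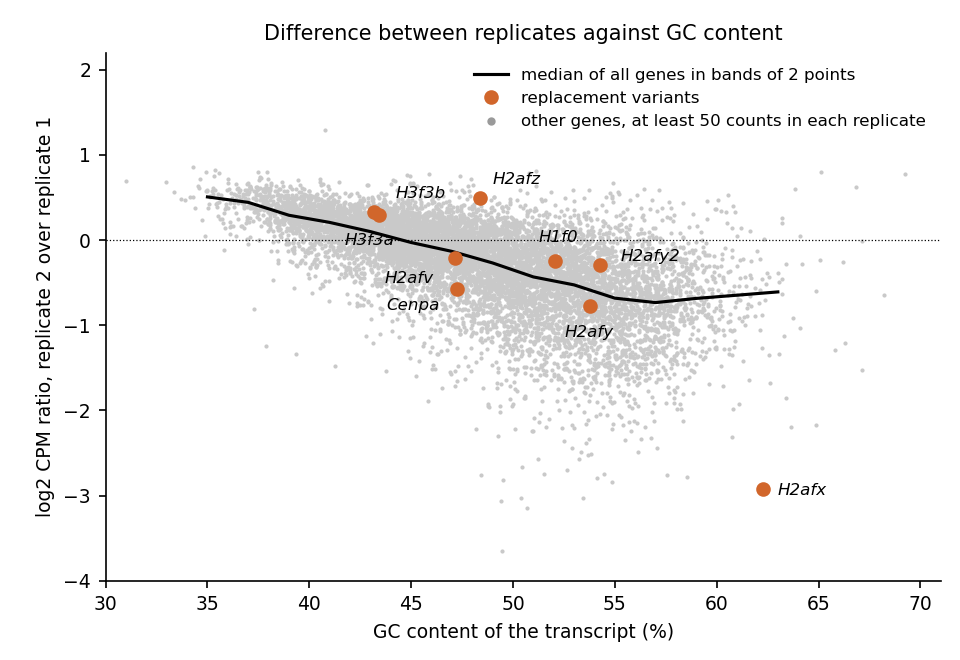
Log2 CPM ratio of replicate 2 over replicate 1 against GC content (%) for genes that had 50 or more counts in both libraries (grey), with the median in bands of 2 points of GC content (black line) and 9 replacement variants (orange). H2afz lies 0.80 above the fitted trend (not drawn), and H2afx lies at -2.92, where that trend gives -0.71.

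Compared with replication-dependent histone genes, the 10 genes were far more abundant in these poly(A)-selected libraries. Their summed level was 3045 TPM against 185 TPM for 56 replication-dependent genes in replicate 1 and 3737 against 136 TPM in replicate 2, that is, 16.5-fold and 27.5-fold (log2 ratio 4.41 ± 0.52, n = 2). The replication-dependent genes held 1142 and 682 counts in all, led by Hist1h2bc (235 and 225 counts) and Hist1h2bp (106 and 117). A lower level of these mRNAs and their loss at oligo-dT capture cannot be told apart here. How much sequence the replication-dependent genes share with each other was not examined, so their counts are uncertain too. Of 12 germ line histone variants, 10 were in the table, and 6 of them had 0 counts in both replicates. None reached a mean of 1 TPM, and the highest, H2bfm, had 14 and 0 counts (1.77 and 0 TPM).

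Genes that place, exchange, modify or process histones were examined in 5 lists. All 42 that were in the table reached a mean of 1 TPM, as did 55.3% of all genes, 36 reached 10 TPM, as did 34.1% of all genes, and the median was 83.8 TPM. Between replicates, 34 of the 42 passed the exact binomial test, beside 60.8% of all genes tested, with 21 lower in replicate 2 (45.7% of all genes) and 13 higher (15.1%). The same shares of all genes apply to the counts given for each list below. With TMM factors the signs of the 34 became 14 lower and 20 higher.

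Among 9 H3.3 chaperone genes (median 44.99 TPM), Nasp, which binds free H3, was highest at 719 and 742 TPM (731 ± 16.5). Daxx, which deposits H3.3 at heterochromatin with Atrx, was lowest at 13.8 and 6.42 TPM and also differed most between replicates (293 and 110 counts, log2 ratio -1.18). In this list 8 of 9 passed, 5 lower and 3 higher.

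Of 12 H2A.Z exchange genes, 11 were analysed (median 39.4 TPM) and Srcap was not analysed here. Actl6a, an actin-related subunit of several remodellers, was highest at 303 ± 22.6 TPM, and Znhit1, a subunit of the SRCAP complex, lowest at 2.22 and 0.712 TPM (31 and 8 counts). Ruvbl2, an AAA ATPase shared by these complexes, differed most (155 and 35 counts, log2 ratio -1.90), and 9 genes passed, 7 lower and 2 higher.

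The 8 CENP-A loading genes had the highest median, 246.9 TPM. Rbbp7, a histone-binding protein shared by many complexes, led with 1353 ± 76.1 TPM, while Hjurp, the chaperone dedicated to CENP-A, stood at 1.24 TPM (50 and 33 counts) and overlaps other genes on its strand, so that its count is uncertain. Cenpn, a reader of CENP-A nucleosomes, differed most (1762 and 796 counts, log2 ratio -0.92), and 6 of 8 passed, 3 in each direction. With TMM factors Mis18a (0.76) differed more than Cenpn (-0.66).

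Among 8 genes that phosphorylate, dephosphorylate or read H2A.X (median 64.2 TPM), the kinase gene Atr was highest at 302 ± 46.7 TPM and the phosphatase gene Eya1 lowest at 10.7 ± 1.11 TPM. Mdc1, which binds phosphorylated H2A.X, differed most (2390 and 1446 counts, log2 ratio -0.50), far less than H2afx itself, and 6 of 8 passed, 3 in each direction. With TMM factors Atr (0.49) differed more than Mdc1 (-0.24). Of the 6 stem-loop mRNA factors (median 93.8 TPM), Slbp, which binds the stem-loop, was highest at 228 ± 1.33 TPM with nearly equal replicates. Lsm10, a subunit of the particle that cleaves histone pre-mRNA, was lowest at 5.22 TPM and differed most (59 and 12 counts, log2 ratio -2.02), and 5 of 6 passed, 3 lower and 2 higher.

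**Figure D5:**
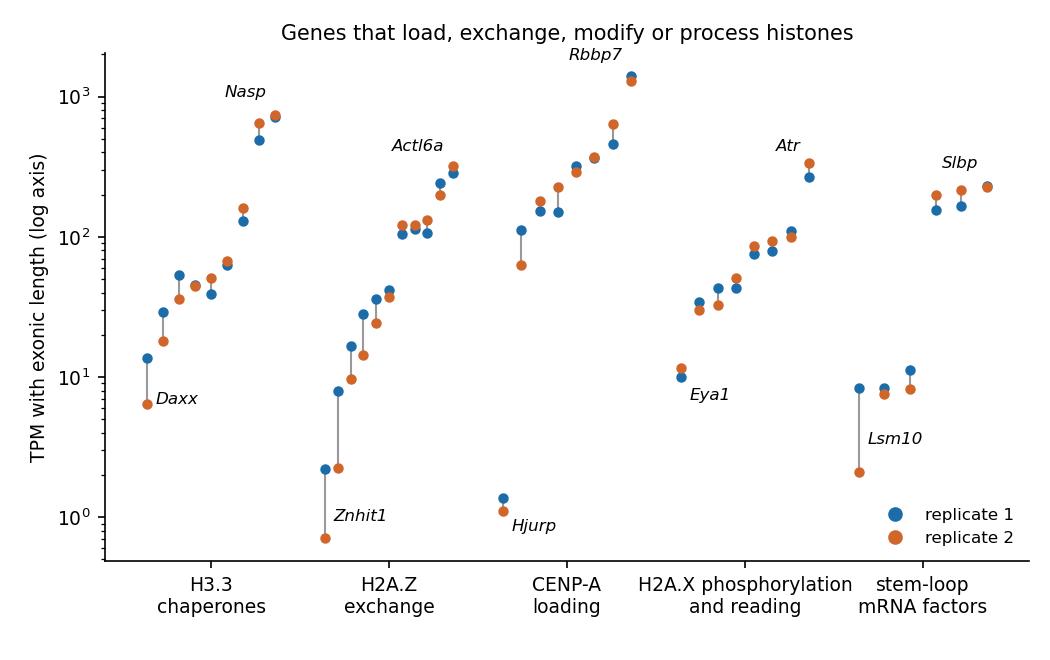
TPM with exonic length (log axis) of 42 genes in 5 lists, ordered by level within each list, with replicates 1 and 2 joined by a line and the highest and lowest gene named. The highest gene of each list lies between 228 TPM (Slbp) and 1353 TPM (Rbbp7), and the widest gaps between replicates are those of low genes such as Znhit1, Ruvbl2 and Lsm10.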

How the data were processed

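Polyadenylated mRNA of 2 replicates of 1 group was analysed. The deposited table holds raw fragment counts that the authors made with featureCounts (1.5.2 per the file header; paired, reverse-stranded, over whole transcript spans on mm10). The submitters' processing notes also name Bowtie2 (2.3.2) and STAR (2.4.2a); how the mRNA reads were aligned is not given in the sources used here. Depth was 23716499 and 20275749 counts.

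TPM was computed from the counts with the union of exons of GENCODE M21 basic (GRCm38), matched for 22137 genes (98.1%), and replicates were averaged as in the study. Start positions were moved by 1 base to count from 1. CPM ratios had 0.5 counts added. Exact binomial tests (scipy 1.17.1) were adjusted by Benjamini-Hochberg at 0.05 over genes whose 2 counts summed to 10 or more. The GC trend was a polynomial of degree 3 fitted to autosomal genes that had 50 or more counts in both libraries. TMM factors came from edgeR (4.0.16, R 4.3.3) and size factors from DESeq2 (1.42.0). The test was checked on simulated counts that held read sampling alone, with no spread between libraries and no GC trend. That check therefore says nothing of how many genes passed here.

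The 10 genes, the lists (H3.3 chaperones, H2A.Z exchange, CENP-A loading, H2A.X phosphorylation and reading, stem-loop mRNA factors, germ line variants, replication-dependent genes, cell markers) and the tests were chosen with earlier results of these data known. Named from each list were the highest, the lowest and the gene that differed most between replicates, scaled by library totals, among those that passed. Other gene lengths, scalings, filters and single replicates were tried as alternatives. Column names lack a letter b of the sample descriptions and were matched by the rest of the name.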

Additional observations from a re-analysis of the deposited data

How the results depend on the processing

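No paired analysis was possible because the 2 samples form 1 group. The 36 values from a single replicate lie within 1 SD of a mean of 2 by construction where they are levels, ratios or shares, and they say nothing of stability. Of 107 other alternatives, 64 values moved by less than the error of the value (counts of genes by less than or equal to 1.5 times), 37 moved by more and 6 changed sign. Of the 9 genes that passed the exact binomial test, H2afv, H2afy2 and H1f0 no longer did with TMM factors or DESeq2 size factors. The median level of 66.1 TPM became 214 TPM with the deposited length and 53.3 to 92.6 TPM with a single replicate. The number of genes at their original rank was 5 with the deposited length, with exon bases inside the counted span (chosen after seeing the data) and with no length, and 6 to 7 with a single replicate. The log2 ratio of H3f3b to H3f3a was 2.86 with the deposited length, 0.92 with the longest transcript, 0.74 with no length, -0.14 with exon bases inside the counted span, which shorten H3f3a most, and 0.98 to 1.01 with a single replicate. That of H2afz to H2afv was 6.01, 3.19 (no length) and 3.46 to 4.15, and that of H2afy to H2afy2 was 0.28 with the deposited length and 0.52 to 1.00 with a single replicate. The summed level against replication-dependent genes was 3.77 with the deposited length, 5.75 with no length and 4.04 to 4.78 with a single replicate. The replicate difference of H2afv turned to 0.052 with TMM factors and 0.013 against the GC trend, that of H1f0 to 0.0091 and 0.30, and that of H2afy2 to 0.37 against the GC trend; the cause was not tested. For H1fx, no level could be had among genes with at least 10 counts. Depth limits statements on H1fx, and the gap between replicates limits those on the level of H2afx.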
